A study of Mus musculus with 6 samples.

Results

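The mitotic cell cycle genes described here are 50 mouse genes whose products run DNA replication and cell division, named as a list of symbols and matched to the authors' Ensembl identifiers. Of these 50, 48 were among the 15441 genes with a value in at least 1 library, and Gins2, a helicase subunit, and Foxm1, a transcription factor of G2/M genes, had no value in any. By role, 3 are G1 and G1/S cyclins, 15 act in S phase and 32 act in G2 and M phase (called G2/M genes here). The question was how the S phase genes compared with the G2/M genes in the sham cortex and on days 1 to 28 post-stroke.

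The libraries were made from the whole ipsilateral cortex of male C57/BL6J mice aged 6 to 8 weeks, in which Rose Bengal and cold light through the intact skull had produced a photothrombotic stroke of the sensorimotor cortex, and the tissue was taken on day 1, 3, 7, 14 or 28. Control mice had a sham operation without illumination, and their tissue was taken on day 7 after it, so the sham is matched in time to the day 7 library only. Each of the 6 libraries was the pooled RNA of 3 mice, so each group has 1 library, the spread between mice is unknown, no test was possible, and no difference below has a replicate check. The RNA was poly(A)-selected and sequenced strand-specifically as paired reads of 150 bases, with 33.6 M reads for a sample on average, and the depth of the single libraries is unknown. Bulk RNA of a whole cortex cannot tell fewer cells of a type from less RNA per cell.

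The values are FPKM (fragment counts scaled to transcript length and library size), which the authors gave for each transcript start, transcript end and splicing event. The value of a gene in a library was the largest of its summed starts, its summed ends and any single event. A gene with no event in a library is called not listed there. Log2 ratios were taken after adding 0.1 to both FPKM, which understates the ratio of genes with low values. A gene is called higher or lower where this log2 ratio was at least 1 in size and at least 1 of the libraries compared had an FPKM of at least 1.

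A dividing cell first makes D-type and E-type cyclins in G1. It then loads the MCM helicase on replication origins, copies its DNA with the help of the sliding clamp PCNA and of enzymes that supply deoxynucleotides, and in G2 builds up cyclin B with CDK1, the spindle motors and the anaphase-promoting complex that ends mitosis. S phase genes are known targets of E2F factors, whose motif is read here as TTCCCGC or TTGGCGC. G2/M genes are known targets of the DREAM and MuvB complexes, which bind the cell cycle genes homology region (CHR), read here as TTTGAA or TTCGAA, often next to CCAAT boxes bound by NF-Y. In the adult cortex few cells divide, while glia, vascular cells and invading leukocytes can divide after an injury.

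To show the motifs, the 150 bases before the RefSeq transcription start are given for some of the genes, picked after the matches were known. Mcm6 and Rrm1 of S phase and Top2a and Ube2c of G2/M are examples of the more frequent arrangement in each class. The windows of Cdk1, Ccnb1 and Mki67 of G2/M are examples of other arrangements. The build is GRCm38.p6, each line reads 5′ to 3′ on the strand of the gene, and capitals mark every match to an E2F, CHR or CCAAT motif on either strand. The windows are chr1:128359706-128359855 on the minus strand for Mcm6, chr7:102441545-102441694 on the plus strand for Rrm1, chr11:99024190-99024339 on the minus strand for Top2a, chr10:69352913-69353062 on the minus strand for Cdk1, chr2:164769779-164769928 on the plus strand for Ube2c, chr13:100786487-100786636 on the minus strand for Ccnb1, and chr7:135716380-135716529 on the minus strand for Mki67.
Mcm6: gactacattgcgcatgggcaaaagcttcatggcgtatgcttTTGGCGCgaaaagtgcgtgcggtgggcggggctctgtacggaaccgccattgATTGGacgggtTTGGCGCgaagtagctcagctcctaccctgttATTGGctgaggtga
Rrm1: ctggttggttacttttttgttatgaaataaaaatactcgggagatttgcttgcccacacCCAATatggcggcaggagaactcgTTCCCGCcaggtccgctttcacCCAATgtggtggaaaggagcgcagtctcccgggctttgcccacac
Top2a: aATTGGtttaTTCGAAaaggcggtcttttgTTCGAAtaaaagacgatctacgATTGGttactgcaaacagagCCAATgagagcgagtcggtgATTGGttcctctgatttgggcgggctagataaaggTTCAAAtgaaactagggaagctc
Cdk1: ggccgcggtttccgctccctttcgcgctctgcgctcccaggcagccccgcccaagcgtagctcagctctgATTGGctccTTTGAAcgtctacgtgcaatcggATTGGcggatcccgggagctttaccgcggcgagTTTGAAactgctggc
Ube2c: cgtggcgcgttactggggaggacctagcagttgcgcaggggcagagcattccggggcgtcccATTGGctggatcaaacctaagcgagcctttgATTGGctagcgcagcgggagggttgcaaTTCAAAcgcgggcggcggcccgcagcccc
Ccnb1: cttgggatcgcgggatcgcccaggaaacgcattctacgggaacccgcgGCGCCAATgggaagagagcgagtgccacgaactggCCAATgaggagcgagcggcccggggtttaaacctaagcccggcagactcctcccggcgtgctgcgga
Mki67: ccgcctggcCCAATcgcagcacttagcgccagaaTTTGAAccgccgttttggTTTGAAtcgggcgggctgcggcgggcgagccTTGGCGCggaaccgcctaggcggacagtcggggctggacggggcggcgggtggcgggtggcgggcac
The capitals in the Mcm6 and Rrm1 lines are E2F and CCAAT matches, while those in the Top2a, Cdk1 and Ube2c lines are CHR and CCAAT matches. The Cdk1 window also holds an E2F match, centred at -174 bases from the start and so outside its printed stretch. Ccnb1 holds an E2F match that overlaps a CCAAT match and no CHR match, and Mki67 holds both E2F and CHR matches. The split between the classes is thus one of frequency, counted over all windows further on. A match is a description of the letters, not a bound site.

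Day 3 was the library in which these genes were highest. Of the 50 genes, 47 were listed on day 3 and 47 on day 7, against 35 in sham, 39 on day 1, 40 on day 14 and 33 on day 28, and 27 were listed in all 6 libraries. Over all 15441 genes the share listed was 89.4% on day 3 and 90.6% on day 7, against 85.9% in sham, 86.5% on day 1, 85.9% on day 14 and 86.7% on day 28. The number with an FPKM of at least 1 was 13 in sham, 16 on day 1, 41 on day 3, 31 on day 7, 14 on day 14 and 13 on day 28. Over all genes this share was 73% in sham, 72.9% on day 1, 76.2% on day 3, 76.4% on day 7, 73.8% on day 14 and 73.6% on day 28. Of the 41 genes that reached 1 FPKM anywhere, 34 had their highest value on day 3, against 16.5% of all genes that reached 1 FPKM and 20.5% of those that also stayed under 10 FPKM.

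**Figure D1:**
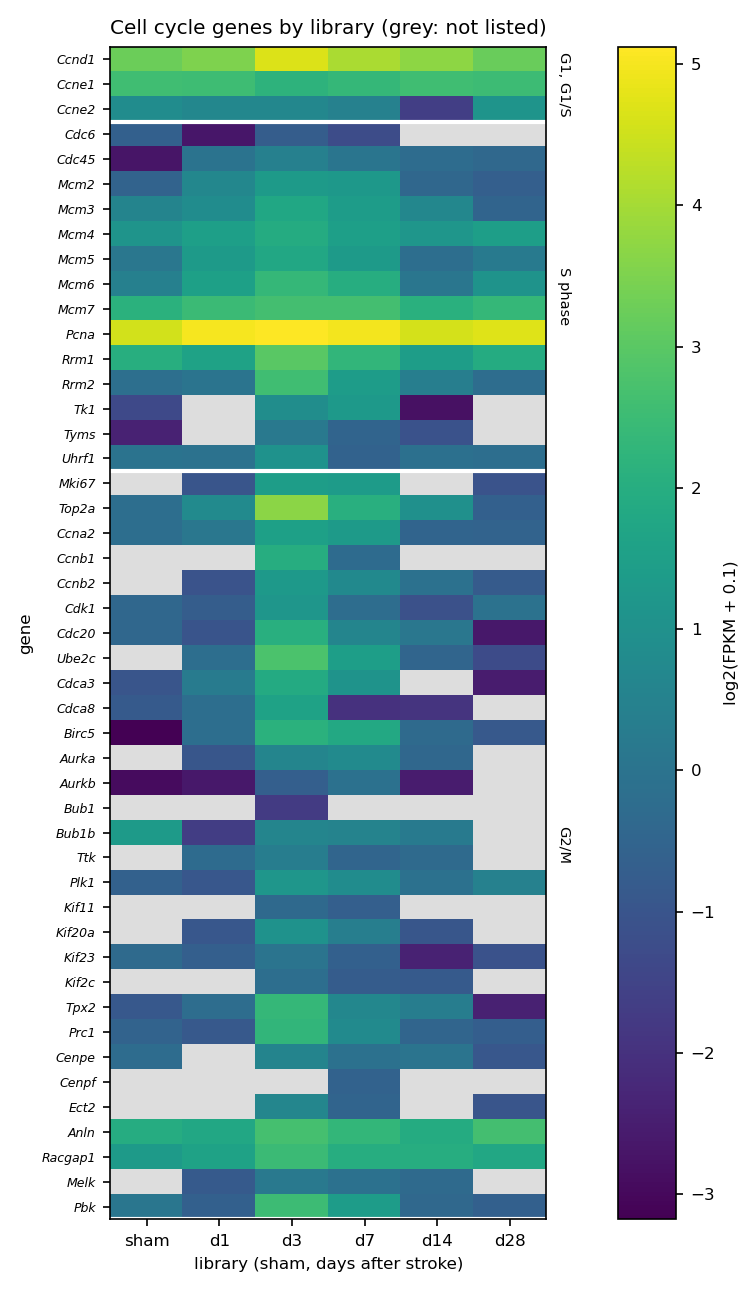
Log2(FPKM + 0.1) of each cell cycle gene (rows, in the order of their roles) in the 6 libraries (columns), with grey where the gene was not listed. Gins2 and Foxm1 had no value, and Nusap1 is left out because most of its value came from a neighbouring transcript. The day 3 column is the brightest for most rows, and the grey cells lie mainly in sham and on day 28 among the G2/M genes.

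At day 3, 31 of the 50 genes were higher than in sham and 0 were lower, where 8.54% of the 12052 genes compared were higher (13.2% of those under 10 FPKM in all libraries) and 2.53% lower. Of the 41 that passed the filter on low values on day 3, 28 passed it only through the day 3 library and so were bound to be above sham. Among these 28 were 27 of the 31 higher genes, and 9 of the 31 were not listed in sham. At day 7, 18 were higher and 0 lower, against a background of 8.53% higher and 2.12% lower. Of the 31 genes past the filter on day 7, 18 passed only through the day 7 library, and 17 of the 18 higher genes were among these. At day 1, 4 were higher and 1 lower (background 5.11% higher and 4.48% lower) among 17 genes past the filter. Of these 17, 4 passed only through the day 1 library, 3 of the 4 higher genes among them. At day 14, 2 were higher and 2 lower (8.97% and 6.92%) among 16 past the filter. Of these 16, 3 passed only through the day 14 library, the 2 higher genes among them. At day 28, 1 was higher and 2 lower (3.68% and 2.79%) among 15 past the filter. Of these 15, 2 passed only through the day 28 library, the higher gene among them.

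Among the G1 and G1/S cyclins, cyclin D1 stood apart from the E cyclins. Ccnd1, the D-type cyclin that couples growth signals to CDK4 and CDK6, was at 9.4 FPKM in sham, 11.4 on day 1, 25.3 on day 3, 16.8 on day 7, 12.9 on day 14 and 9.2 on day 28. It was highest on day 3, with a log2 ratio to sham of 1.42, still at 0.83 on day 7, and back to -0.03 on day 28. Ccne1, a cyclin E that activates CDK2 at the entry to S phase, was at 5.82 FPKM in sham, 5.75 on day 1, 4.46 on day 3, 5.0 on day 7, 5.91 on day 14 and 5.67 on day 28. Ccne1 thus moved within log2 ratios of -0.38 and 0.02, lowest on day 3. Ccne2, the other cyclin E, was at 1.7 FPKM in sham, 1.5 on day 1, 1.5 on day 3, 1.29 on day 7, 0.221 on day 14 and 2.06 on day 28. Ccne2 kept near its sham level except on day 14, where it was lower, with a log2 ratio of -2.49.

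Of the 15 S phase genes, 9 were higher than in sham on day 3 (Cdc45, Mcm2, Mcm3, Mcm5, Mcm6, Rrm2, Tk1, Tyms and Uhrf1), 5 on day 7 (Mcm2, Mcm5, Mcm6, Rrm2 and Tk1), 3 on day 1 (Mcm2, Mcm5 and Mcm6), and 0 on days 14 and 28. Over all genes compared, 8.54% were higher on day 3, 8.53% on day 7, 5.11% on day 1, 8.97% on day 14 and 3.68% on day 28. Past the filter were 13 of the 15 on day 3, 10 on day 7 and 8 on day 1. Of the 9 on day 3, 7 passed it only through the day 3 library, and of the 5 on day 7, 4 only through the day 7 library. The 3 counted on day 1 were all helicase subunits, and of these Mcm2 and Mcm5 passed the filter only through the day 1 library. Mcm2, a subunit of the MCM2 to MCM7 ring that unwinds DNA at replication forks, was at 0.59 FPKM in sham, 1.48 on day 1, 2.44 on day 3, 2.29 on day 7, 0.653 on day 14 and 0.526 on day 28. Mcm5 was at 0.983 FPKM in sham, 2.43 on day 1, 3.35 on day 3, 2.46 on day 7, 0.787 on day 14 and 1.05 on day 28. Mcm6 was at 1.25 FPKM in sham, 2.81 on day 1, 5.06 on day 3, 3.91 on day 7, 0.955 on day 14 and 2.0 on day 28. These 3 subunits had log2 ratios to sham of 1.19, 1.22 and 1.10 on day 1, and of 1.88, 1.67 and 1.93 on day 3.

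The other 3 subunits of the ring moved less. Mcm3 was at 1.39 FPKM in sham, 1.72 on day 1, 3.3 on day 3, 2.57 on day 7, 1.47 on day 14 and 0.611 on day 28. Mcm4 was at 2.09 FPKM in sham, 2.72 on day 1, 3.7 on day 3, 2.76 on day 7, 2.15 on day 14 and 2.7 on day 28. Mcm7 was at 4.29 FPKM in sham, 5.52 on day 1, 6.2 on day 3, 6.2 on day 7, 4.12 on day 14 and 4.98 on day 28. Mcm3 was higher on day 3 (log2 ratio 1.19) and lower on day 28 (-1.06), and Mcm4 and Mcm7 stayed under a log2 ratio of 1 on all days. Mcm7 was as high on day 7 as on day 3. Summed over the 6 subunits, the level was 10.6 FPKM in sham, 16.7 on day 1, 24.1 on day 3, 20.2 on day 7, 10.1 on day 14 and 11.9 on day 28, or 1.57 times sham on day 1, 2.27 times on day 3 and 1.91 times on day 7.

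Cdc45, which joins the ring to form the active helicase, was at 0.0536 FPKM in sham, 0.896 on day 1, 1.25 on day 3, 0.941 on day 7, 0.745 on day 14 and 0.666 on day 28. Its sham value lies below the 0.1 added to each FPKM, so only its order is given, with day 3 highest and sham lowest. With start events alone its log2 ratio to sham on day 3 was 0.22, under the threshold. Its count as higher on day 3 thus depended on the events used. Cdc6, which helps to load the ring on origins, was at 0.542 FPKM in sham, 0.0567 on day 1, 0.508 on day 3 and 0.321 on day 7, and not listed on day 14 and on day 28, and so never reached 1 FPKM. Pcna, the sliding clamp of the DNA polymerases, was at 23.4 FPKM in sham, 32.1 on day 1, 34.7 on day 3, 31.4 on day 7, 23.7 on day 14 and 26.1 on day 28. Pcna was the most abundant S phase gene in every library, and its log2 ratios to sham of 0.45 on day 1, 0.57 on day 3 and 0.42 on day 7 stayed under 1.

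The genes of deoxynucleotide supply (Rrm1, Rrm2, Tk1 and Tyms) summed to 0.742 times sham on day 1, 3.2 times on day 3 and 1.98 times on day 7. The day 1 sum holds Rrm1 and Rrm2 alone, since Tk1 and Tyms were not listed there and entered as 0. On day 1 Rrm1 had a log2 ratio to sham of -0.43 and Rrm2 of 0.15, both under the threshold in size. Rrm1, the large subunit of ribonucleotide reductase, was at 3.99 FPKM in sham, 2.94 on day 1, 7.88 on day 3, 4.79 on day 7, 2.64 on day 14 and 3.7 on day 28. Rrm2, its small subunit, whose level follows S phase, was at 0.803 FPKM in sham, 0.901 on day 1, 5.93 on day 3, 2.58 on day 7, 1.19 on day 14 and 0.771 on day 28. Rrm1 had a log2 ratio of 0.96 on day 3, just under the threshold, while Rrm2 had 2.74, and from day 3 to day 7 Rrm2 fell by 1.17 on the log2 scale. Tk1, the thymidine kinase of the salvage pathway, was at 0.298 FPKM in sham, 1.74 on day 3, 2.31 on day 7 and 0.044 on day 14, and not listed on day 1 and on day 28. Tk1 was higher on day 7 than on day 3, with log2 ratios of 2.60 and 2.21. Tyms, thymidylate synthase, was at 0.0907 FPKM in sham, 1.03 on day 3, 0.605 on day 7 and 0.372 on day 14, and not listed on day 1 and on day 28. The sham value of Tyms lies under the 0.1 added, and its log2 ratio of 2.57 on day 3 depends on that constant. Uhrf1, which carries DNA methylation through replication, was at 0.879 FPKM in sham, 0.86 on day 1, 1.96 on day 3, 0.571 on day 7, 0.82 on day 14 and 0.775 on day 28. It was higher on day 3 alone, with a log2 ratio of 1.07, and had dropped below its sham value by day 7.

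Of the 32 G2/M genes, 21 were higher than in sham on day 3, 13 on day 7, 1 on day 1 (Cdca3), 2 on day 14 (Top2a and Tpx2) and 1 on day 28 (Plk1). Over all genes compared, 8.54%, 8.53%, 5.11%, 8.97% and 3.68% were higher on these days. Past the filter were 25, 18, 6, 6 and 5 of the 32. On day 3, 20 of the 21 passed it only through the day 3 library. The genes counted on the other days all passed only through the library of that day. The 21 on day 3 were 12 genes listed in sham (Top2a, Ccna2, Cdk1, Cdc20, Cdca3, Cdca8, Birc5, Plk1, Tpx2, Prc1, Racgap1 and Pbk) and 9 that were not (Mki67, Ccnb1, Ccnb2, Ube2c, Aurka, Ttk, Kif20a, Ect2 and Melk). For the latter no ratio is given. At day 7 the 13 were Top2a, Ccna2, Cdca3, Birc5, Plk1, Tpx2, Prc1 and Pbk with Mki67, Ccnb2, Ube2c, Aurka and Kif20a, and Cdc20 lay just under the threshold at 0.998.

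The largest single value of the group, Nusap1 aside, belonged to Top2a. Top2a, the topoisomerase that untangles sister chromatids, on chr11:98992943-99024189 on the minus strand, was at 0.786 FPKM in sham, 1.64 on day 1, 12.9 on day 3, 4.07 on day 7, 1.87 on day 14 and 0.549 on day 28. It stood at a log2 ratio of 3.87 to sham on day 3, 2.24 on day 7 and 1.15 on day 14, and was below sham on day 28. An event for its transcript start was listed only on day 3 (5.27 FPKM), day 7 (2.43 FPKM) and day 28 (0.549 FPKM). The Top2a value on day 28 was that of the start, while its values in the other libraries came from transcript ends. Day 28 and sham thus rest on unlike events. Mki67, the gene of the proliferation antigen Ki-67, was at 0.402 FPKM on day 1, 2.64 on day 3, 2.47 on day 7 and 0.382 on day 28, and not listed in sham and on day 14. At day 7, 33.2% of the Mki67 value came from events within its annotated span but on the opposite strand, which are counted as outside it here. The value from events inside the span on the strand of the gene was 1.65 FPKM.

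**Figure D2:**
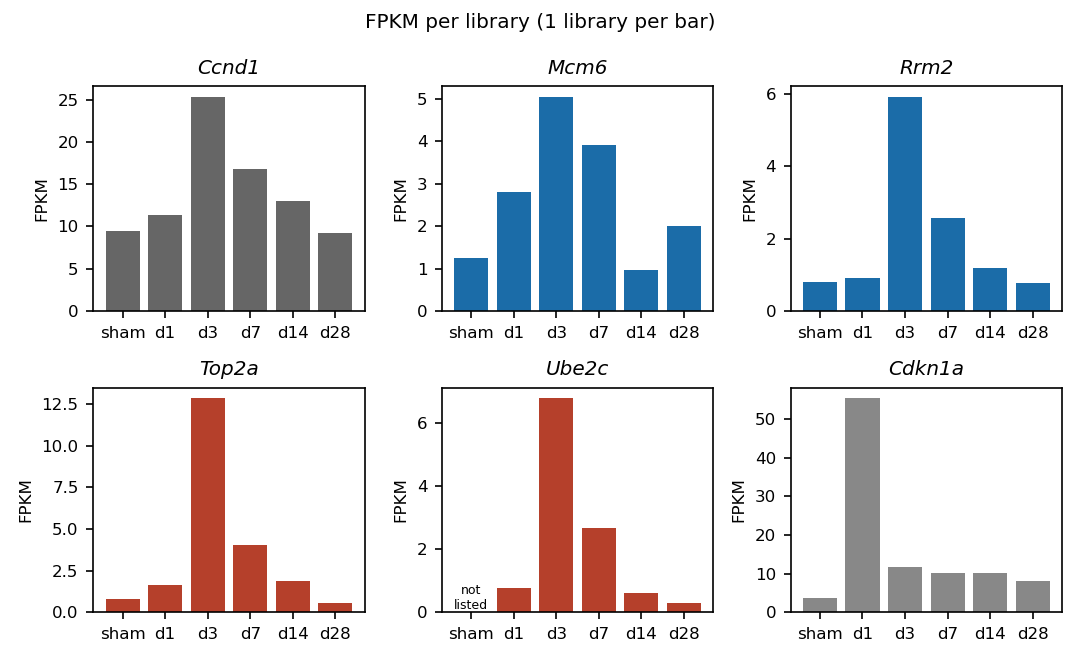
FPKM (vertical axes, each with its own scale starting at 0) of 6 genes in the 6 libraries, 1 library per bar. Ccnd1, Mcm6, Rrm2, Top2a and Ube2c were all highest on day 3, at 25.3, 5.06, 5.93, 12.9 and 6.8 FPKM, while the inhibitor Cdkn1a was highest on day 1, at 55.3 FPKM.

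The mitotic cyclins and their kinase were under 1 FPKM or not listed outside days 3 and 7. On day 7 Ccnb1 and Cdk1 were under 1 FPKM as well. Ccna2, cyclin A2, which acts in S phase and G2, was at 0.78 FPKM in sham, 0.978 on day 1, 2.78 on day 3, 2.42 on day 7, 0.60 on day 14 and 0.595 on day 28. Ccnb1, cyclin B1, the main partner of CDK1 at mitotic entry, was at 3.84 FPKM on day 3 and 0.73 on day 7, and not listed in sham, on day 1, on day 14 and on day 28. Ccnb2, cyclin B2, was at 0.385 FPKM on day 1, 2.3 on day 3, 1.61 on day 7, 0.848 on day 14 and 0.481 on day 28, and not listed in sham. Cyclin B1 fell steeply between days 3 and 7, by 2.25 on the log2 scale, while cyclin A2 kept most of its level. Cdk1, the kinase that drives mitosis, was at 0.656 FPKM in sham, 0.499 on day 1, 2.17 on day 3, 0.76 on day 7, 0.356 on day 14 and 0.865 on day 28. Its log2 ratio to sham was 1.58 on day 3 and 0.19 on day 7, and a start event was listed only on day 3 (2.17 FPKM), day 7 (0.76 FPKM) and day 14 (0.356 FPKM). In sham, day 1 and day 28 the Cdk1 value thus came from transcript ends without a listed start. Ccna2 and Cdk1, the members of this group listed in sham, summed to 1.44 FPKM there, to 3.44 times that on day 3 and to 2.21 times on day 7.

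The genes that act with the anaphase-promoting complex (APC/C), the ubiquitin ligase that marks cyclin B and securin for destruction, were also highest on day 3. Cdc20, its mitotic activator, was at 0.661 FPKM in sham, 0.391 on day 1, 4.08 on day 3, 1.42 on day 7, 0.981 on day 14 and 0.0604 on day 28. Ube2c, its ubiquitin-conjugating enzyme, was at 0.788 FPKM on day 1, 6.8 on day 3, 2.69 on day 7, 0.617 on day 14 and 0.309 on day 28, and not listed in sham. Cdc20 was at a log2 ratio of 2.46 to sham on day 3. From day 3 to day 7 Cdc20 fell by 1.46 and Ube2c by 1.31 on the log2 scale. Cdca3, which is needed for the destruction of the mitosis inhibitor WEE1, was at 0.405 FPKM in sham, 1.11 on day 1, 3.6 on day 3, 2.02 on day 7 and 0.0697 on day 28, and not listed on day 14. Cdca3 was the single G2/M gene counted as higher on day 1, where its log2 ratio was 1.26.

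Of the chromosomal passenger complex, which corrects the attachment of chromosomes to the spindle, Birc5, Cdca8 and Aurkb are among the 50 genes. They summed to 0.507 FPKM in sham, 1.62 on day 1, 7.73 on day 3, 4.47 on day 7, 0.942 on day 14 and 0.455 on day 28. This sum leaves out Incenp, which is not among the 50. Incenp was at 3.4 FPKM in sham, 2.37 on day 1, 4.47 on day 3, 4.63 on day 7, 3.12 on day 14 and 4.1 on day 28. Its log2 ratio to sham was 0.39 on day 3. Birc5, survivin, was at 0.0107 FPKM in sham, 0.782 on day 1, 4.26 on day 3, 3.47 on day 7, 0.707 on day 14 and 0.455 on day 28. Its sham value lies far below the 0.1 added, so its log2 ratio of 5.30 on day 3 depends on that constant, but its day 3 and day 7 values were above those of all other libraries. Cdca8, borealin, was at 0.466 FPKM in sham, 0.78 on day 1, 2.93 on day 3, 0.149 on day 7 and 0.164 on day 14, and not listed on day 28. From day 3 to day 7 Cdca8 fell by 3.61 on the log2 scale, to below its sham value. Aurkb, the kinase of the complex, was at 0.0306 FPKM in sham, 0.0596 on day 1, 0.535 on day 3, 0.846 on day 7 and 0.0712 on day 14, and not listed on day 28, and so stayed under 1 FPKM, with its highest value on day 7.

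The mitotic kinases and checkpoint genes did not all move alike. Plk1, polo-like kinase 1, which acts from mitotic entry to cytokinesis, was at 0.56 FPKM in sham, 0.424 on day 1, 2.17 on day 3, 1.71 on day 7, 0.842 on day 14 and 1.28 on day 28. Plk1 was higher on day 3 (log2 ratio 1.79), on day 7 (1.46) and again on day 28 (1.06). Aurka, the kinase of the spindle poles, was at 0.412 FPKM on day 1, 1.43 on day 3, 1.63 on day 7 and 0.655 on day 14, and not listed in sham and on day 28. Aurka was slightly higher on day 7 than on day 3. Ttk, the checkpoint kinase MPS1, was at 0.734 FPKM on day 1, 1.16 on day 3, 0.623 on day 7 and 0.707 on day 14, and not listed in sham and on day 28. Melk, a kinase that follows mitosis, was at 0.458 FPKM on day 1, 1.04 on day 3, 0.837 on day 7 and 0.702 on day 14, and not listed in sham and on day 28. Ttk and Melk barely passed 1 FPKM, on day 3. Pbk, a mitotic kinase of the MAPKK family, was at 0.958 FPKM in sham, 0.547 on day 1, 5.67 on day 3, 2.57 on day 7, 0.667 on day 14 and 0.549 on day 28. Pbk was the kinase of this group with the highest day 3 value, at a log2 ratio of 2.45 to sham.

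Bub1b, the checkpoint protein BUBR1, was at 2.46 FPKM in sham, 0.212 on day 1, 1.43 on day 3, 1.35 on day 7 and 1.06 on day 14, and not listed on day 28. Bub1b was the exception among the kinases, since its sham value was its highest, and it counted as lower than sham on days 1, 14 and 28. However, 48.2% of its sham value and 52.5% of its day 7 value came from events outside its annotated span, and the values from inside it were 1.27 FPKM in sham, 0.212 on day 1, 1.43 on day 3, 0.641 on day 7 and 1.06 on day 14, with none listed on day 28. With these alone day 3 was highest, and Bub1b counted as lower than sham on day 1 but not on day 14, where the log2 ratio was -0.24. Bub1, its partner kinase, was listed on day 3 alone, at 0.202 FPKM.

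The spindle genes Tpx2 and Prc1 were among the G2/M genes with the largest ratios on day 3. Tpx2, which activates Aurora A and nucleates spindle microtubules, was at 0.44 FPKM in sham, 0.763 on day 1, 5.0 on day 3, 1.48 on day 7, 1.16 on day 14 and 0.0859 on day 28. Prc1, which bundles the midzone of the spindle, was at 0.584 FPKM in sham, 0.454 on day 1, 4.73 on day 3, 1.65 on day 7, 0.628 on day 14 and 0.515 on day 28. Their log2 ratios to sham were 3.24 and 2.82 on day 3 and 1.55 and 1.35 on day 7. Tpx2 was also among the genes higher on day 14, at 1.22.

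Nusap1, a spindle protein as well, was at 54.7 FPKM in sham, 33.4 on day 1, 53.2 on day 3, 45.8 on day 7, 30.1 on day 14 and 44.1 on day 28, but these values are not a measure of the gene. In sham and on days 1, 14 and 28 all of its value, and on days 3 and 7 97.6% of it, came from 1 start event that the authors assigned to Nusap1. That event, at chr2:119594297-119594434, lies before the annotated span (chr2:119618298-119651244, plus strand), over the lincRNA 1700020I14Rik on the same strand. Events inside the span gave Nusap1 0.786 FPKM in sham, 3.77 on day 1, 1.26 on day 3 and 1.08 on day 7, and were not listed on days 14 and 28. Since Nusap1 outweighs all other G2/M genes together in sham, the sums over G2/M genes below are given without it.

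Among the motors, Kif20a, which moves the passenger complex to the midzone, was at 0.432 FPKM on day 1, 1.96 on day 3, 1.2 on day 7 and 0.413 on day 14, and not listed in sham and on day 28. Cenpe, the kinesin that carries chromosomes to the spindle equator, was at 0.743 FPKM in sham, 1.37 on day 3, 0.845 on day 7, 0.905 on day 14 and 0.43 on day 28, and not listed on day 1. Cenpe was at a log2 ratio of 0.81 to sham on day 3, under the threshold. Kif11, Kif23, Kif2c and the centromere protein gene Cenpf stayed under 1 FPKM in all libraries, as did Cdc6, Aurkb and Bub1. Kif11, the motor that separates the spindle poles, was at 0.691 FPKM on day 3 and 0.531 on day 7, and not listed in sham, on day 1, on day 14 and on day 28. Kif23, a kinesin of the midzone, was at 0.702 FPKM in sham, 0.526 on day 1, 0.904 on day 3, 0.553 on day 7, 0.0905 on day 14 and 0.367 on day 28. Kif23 was the single one of these motors listed in all 6 libraries. Kif2c, which takes microtubules apart at the centromere, was at 0.788 FPKM on day 3, 0.487 on day 7 and 0.463 on day 14, and not listed in sham, on day 1 and on day 28. Cenpf was listed on day 7 alone, at 0.574 FPKM.

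Anln and Racgap1, which act in cytokinesis, were among the G2/M genes with the highest sham values. Anln, anillin, which organises the contractile ring, was at 3.83 FPKM in sham, 3.37 on day 1, 6.28 on day 3, 4.91 on day 7, 3.69 on day 14 and 6.13 on day 28. Racgap1, a subunit of centralspindlin, was at 2.45 FPKM in sham, 2.95 on day 1, 5.5 on day 3, 3.92 on day 7, 3.84 on day 14 and 3.42 on day 28. At day 3 their log2 ratios to sham were 0.70 and 1.14, and Anln was nearly as high on day 28 as on day 3. Ect2, which activates RhoA for the cleavage furrow, was at 1.44 FPKM on day 3, 0.606 on day 7 and 0.407 on day 28, and not listed in sham, on day 1 and on day 14. Unlike Anln and Racgap1, Ect2 was not listed in sham.

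Set side by side, the S phase and G2/M genes differed in the size of the day 3 value. The S phase genes without Pcna summed to 17.3 FPKM in sham, 22.3 on day 1, 44.4 on day 3, 32.3 on day 7, 15.9 on day 14 and 17.8 on day 28. These are 1.29 times sham on day 1, 2.57 times on day 3, 1.87 times on day 7, 0.924 times on day 14 and 1.03 times on day 28. The G2/M genes without Nusap1 summed to 16.5 FPKM in sham, 19.1 on day 1, 90.5 on day 3, 48.1 on day 7, 22 on day 14 and 16.9 on day 28. These are 1.16, 5.48, 2.91, 1.33 and 1.03 times sham on the same days. Of these 31 G2/M genes 14 were not listed in sham and entered its sum as 0. The 17 that were listed in sham summed to 0.937 times sham on day 1, 4.01 times on day 3, 2.07 times on day 7, 1.07 times on day 14 and 0.93 times on day 28. All 13 S phase genes of the sum that had a value were listed in sham. With all members, Pcna and Nusap1 included, the ratios on day 3 were 1.94 for S phase and 2.02 for G2/M, so the difference between both sums depends on Nusap1, whose value is that of a neighbouring transcript. With events inside the annotated spans alone and all members counted, they were 1.94 and 5.69.

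**Figure D3:**
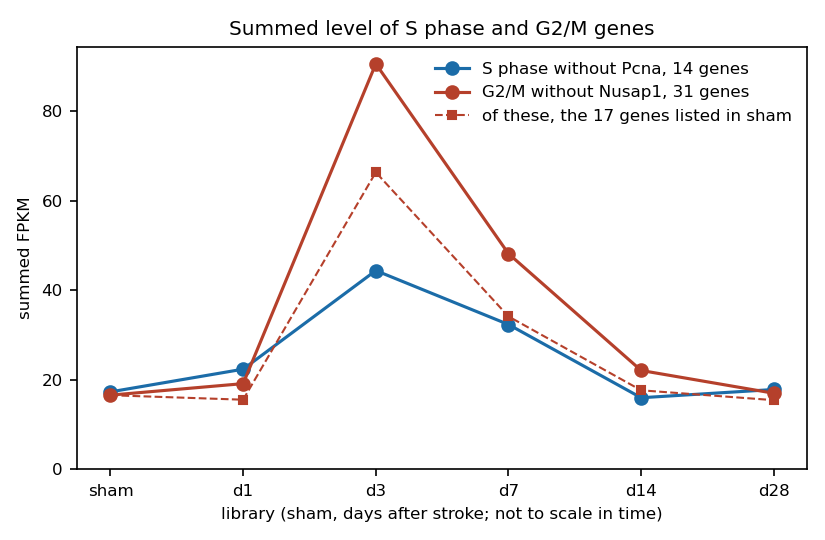
Summed FPKM (vertical axis) of 14 S phase genes without Pcna and of 31 G2/M genes without Nusap1 in the 6 libraries (horizontal axis, not to scale in time), 1 library per point, with a dashed line for the 17 G2/M genes listed in sham. All lines start near 17 FPKM in sham and peak on day 3, at 44.4 FPKM for S phase, 90.5 FPKM for G2/M and 66.3 FPKM for the dashed line, and all are back near the sham level on day 28.

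Taken gene by gene, over the genes listed in both libraries, the median log2 ratio to sham on day 1 was 0.36 for 12 S phase genes, of which 9 were above 0, and -0.18 for 17 G2/M genes, Nusap1 included, of which 8 were above 0. The median of all genes was 0.01. At day 3 the medians were 1.43 for S phase and 2.03 for G2/M, and 0.03 for all genes. At day 7 they were 1.04 and 1.17 (0.03 for all genes), on day 14 0.01 and 0.09 (0.11), and on day 28 0.09 and -0.34 (0.03). The G2/M genes that were not listed in sham have no ratio and are not in these medians.

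**Figure D4:**
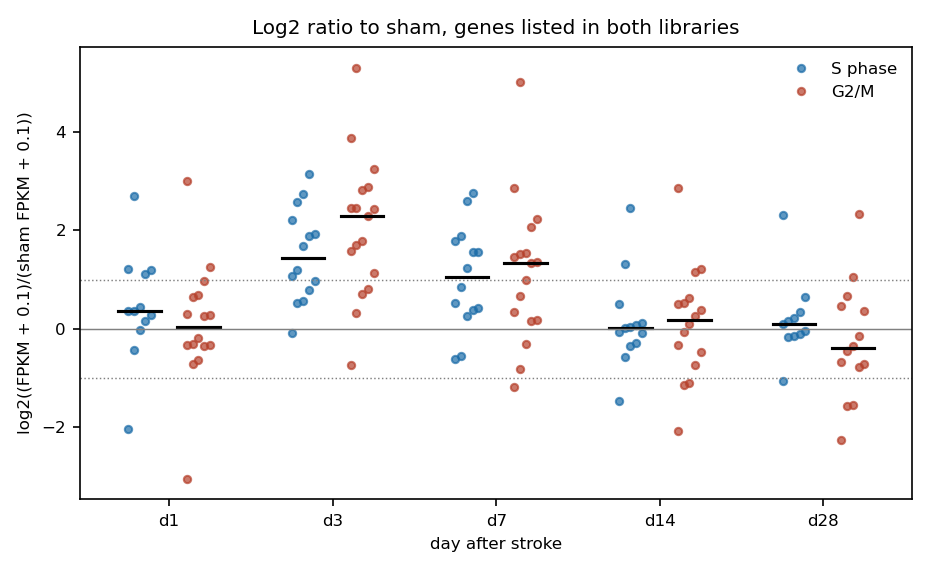
Log2 ratio to sham (vertical axis, 0.1 added to each FPKM) of each S phase gene (blue) and G2/M gene (red) listed in both libraries, by day after stroke, with a bar at the median, a solid line at 0 and dotted lines at 1 and -1. Nusap1 is left out, so that the G2/M bars lie at 0.04, 2.28, 1.34, 0.17 and -0.40 from day 1 to day 28, against 0.36, 1.43, 1.04, 0.01 and 0.09 for S phase, and the highest G2/M point on each day is Birc5, whose sham value was 0.0107 FPKM.

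Among the steps between days, the medians of both classes were farthest apart from day 1 to day 3. From day 1 to day 3, 12 of 12 S phase genes listed in both libraries had a higher value, with a median log2 ratio of 0.76. So had 24 of 24 G2/M genes, with a median of 1.97, Nusap1 included as in the later steps. Events inside the span of Nusap1 fell in that step, from 3.77 FPKM on day 1 to 1.26 FPKM on day 3. Of the 50 genes, 27 passed the threshold in that step (5 S phase and 21 G2/M genes among them), where 8.89% of all genes compared did. Of the 41 past the filter in that step 25 passed only through the day 3 library, 23 of the 27 among them. From day 3 to day 7 the medians were -0.39 for S phase and -0.62 for G2/M. In that step 12 genes were lower, 2 of S phase (Rrm2 and Uhrf1) and 10 of G2/M, against a background of 2.81%, and 0 were higher (3.22%). Of the 41 past the filter in that step 10 passed only through the day 3 library and so were bound to be lower on day 7, and 5 of the 12 were among these. From day 7 to day 14, 16 were lower (5 S phase and 10 G2/M genes among them; background 8.52%), with medians of -0.76 and -0.88, and of the 31 past the filter 17 passed only through the day 7 library, 14 of the 16 among them. From day 14 to day 28 1 was higher and 4 lower, against backgrounds of 6.94% and 7.88%. Each of these passed the filter through a single library. Since each step shares a library with the next, the steps are not independent of each other.

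The promoters of both classes differed in the letters they hold. A RefSeq window of 300 bases, from 250 before to 50 after the start, within 1000 bases of a start event in the deposited files, was found for 35 of the 50 genes (13 of S phase, 21 of G2/M and Ccne1) and for 10333 genes in all. An E2F motif (TTCCCGC or TTGGCGC, both strands) was in 7 of 13 S phase windows (53.8%), in 4 of 21 G2/M windows (19%) and in 12.3% of all windows. A CHR motif (TTTGAA or TTCGAA, both strands) was in 3 S phase windows (23.1%), in 16 G2/M windows (76.2%) and in 13% of all windows. The CHR matches of the G2/M windows lay near the start: counted from 100 bases before it, they were still in 76.2% of G2/M windows, against 15.4% of S phase windows and 4.94% of all. CCAAT (both strands) was in 76.9% of S phase, 81% of G2/M and 37.7% of all windows, and CCAAT with CHR in 23.1%, 71.4% and 5.41%. An E2F match overlapped a CCAAT match in 3 of the 35 windows. The median GC content was 57.3% for S phase, 58% for G2/M and 61.3% for all windows.

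**Figure D5:**
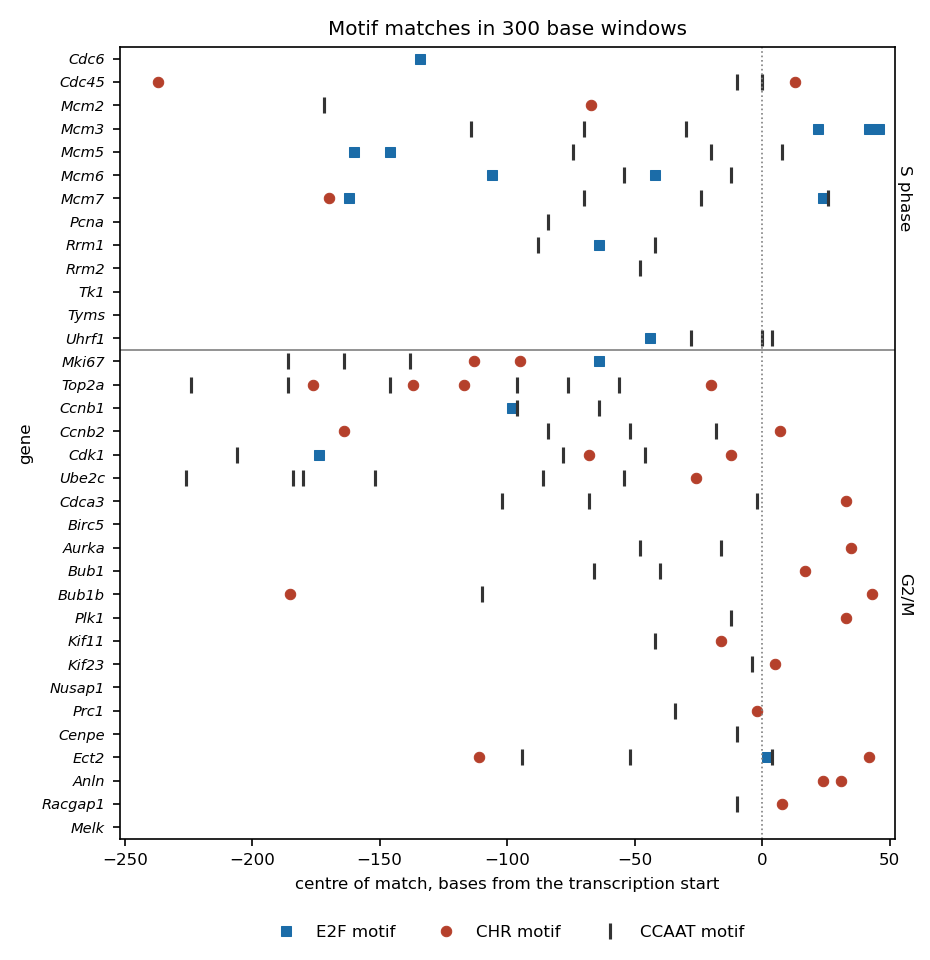
Position of the centre of each motif match (horizontal axis, bases from the RefSeq transcription start, dotted line at 0) in the windows of 13 S phase and 21 G2/M genes (rows). Blue squares (E2F) are found in 7 S phase and 4 G2/M rows, red circles (CHR) in 3 S phase and 16 G2/M rows, most of the latter close to the start, and dashes mark CCAAT.

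The E2F matches of Mcm3 lay after its start. Of the genes printed above, Mcm6 with 2 E2F matches was at 5.06 FPKM on day 3 and Top2a with 3 CHR matches in its printed stretch at 12.9 FPKM. Birc5, Tk1, Tyms and Melk, all higher on day 3, had no match to any of the 3 motifs in their windows, which says only that these letters are not there.

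Splicing events were listed for some of the genes. The exon of Birc5 at chr11:117849754-117849863 (plus strand) was included in transcripts at 3.18 FPKM and skipped at 1.08 FPKM on day 3. In sham and on day 1 the form with the exon was listed alone, at 0.0107 and 0.782 FPKM. The values were 3.14 and 0.327 FPKM on day 7 and 0.238 and 0.469 FPKM on day 14, and on day 28 the skipped form was listed alone, at 0.455 FPKM. Where both forms were listed, the one with the exon was the larger on days 3 and 7 and the smaller on day 14.

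Other cell cycle genes, from lists of the same pathways, were compared in the same way. Of 38 other G2/M genes, 13 were higher than in sham on day 3, 6 on day 7 and 1 on day 1. Of 36 other S phase genes 4, 2 and 2 were. Over all genes past the filter 8.54%, 8.53% and 5.11% were higher. Past the filter on these days were 25, 21 and 17 of the 38, and 24, 21 and 20 of the 36. On day 3, 8 of the 25 and 6 of the 24 passed it only through the day 3 library. Of 10 other G1 cyclins and kinases 8 were past the filter on day 3 and 1 was higher, Ccnd3. Named by the rule of the largest and smallest ratios among the genes listed in both libraries and past the filter, Spc24, a kinetochore protein, had a log2 ratio of 3.17 on day 3 from a sham value under 0.1 FPKM, and Ckap2l, a spindle protein, had 2.44. Ckap2l was at 0.403 FPKM in sham, 2.62 on day 3, 0.805 on day 7 and 0.503 on day 28, and not listed on day 1 and on day 14. At the low end, Kif22, a chromosome kinesin, had -0.40, and Cdc25b, a phosphatase that activates CDK1, had 0.19. Among other S phase genes, Clspn, a fork checkpoint protein, had 1.18 and Tipin 0.89, while E2f1 was lower than in sham, at -1.18. E2f1 was at 3.49 FPKM in sham, 3.83 on day 1, 1.48 on day 3, 3.73 on day 7, 3.11 on day 14 and 3.23 on day 28. Day 3 was thus its lowest library.

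Of 21 inhibitors and genes of cell cycle exit, 17 were past the filter on day 3. Higher than in sham were 3 of them, where 8.54% of all genes past the filter were. Cdkn1a, the CDK inhibitor p21, was at 3.85 FPKM in sham, 55.3 on day 1, 11.7 on day 3, 10.1 on day 7, 10.3 on day 14 and 8.21 on day 28. It was highest on day 1, with a log2 ratio of 3.81, and stayed higher on all later days. Cdkn2c, the CDK4 inhibitor p18, was at 1.06 FPKM in sham, 0.654 on day 1, 3.45 on day 3, 1.71 on day 7, 1.5 on day 14 and 0.654 on day 28. Cdkn2d, the CDK4 inhibitor p19, was at 0.777 FPKM in sham, 24.3 on day 1, 0.423 on day 3, 15.1 on day 7, 19.4 on day 14 and 1.56 on day 28. Cdkn2c was highest on day 3, and Cdkn2d was low in sham, on day 3 and on day 28 and high on days 1, 7 and 14.

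Markers of cell types moved over the same days. The microglia markers P2ry12, Csf1r, Aif1 and Siglech, with Cx3cr1 and Tmem119 (neither of them listed on day 3), summed to 1.76 times sham on day 3 and 1.54 times on day 7. The macrophage markers (6 of 6 listed) went from 14.1 FPKM in sham to 11.7 times that on day 3 and 28.3 times on day 7, most of it Lyz2 (6.73 FPKM in sham, 137 on day 3 and 357 on day 7), and the other 5 went to 3.81 and 5.63 times. The astrocyte markers (5 of 5) went from 340 FPKM to 3.02 and 2.07 times, most of the change being that of Gfap (85.8 FPKM in sham, 698 on day 3 and 422 on day 7), without which they were at 1.29 and 1.11 times. The endothelial markers (4 of 5, Cldn5 not listed) went from 9.28 FPKM to 2.01 and 1.11 times, and the fibroblast and pericyte markers (5 of 5) from 26.7 FPKM to 3.18 and 3.85 times. The neuron markers (5 of 5) were at 0.712 and 0.736 times sham. The oligodendrocyte precursor markers (3 of 5, since Pdgfra and Olig1 had no value) were at 1.08 and 1.22 times sham. The neutrophil markers summed to 18.2 FPKM on day 1 and 2.28 FPKM on day 3, no T cell marker was listed on day 3, and of 5 neural progenitor and neuroblast markers Nes and Dcx were the ones listed there, at 5.17 and 0.211 FPKM. Of these sums, those of microglia, astrocytes, endothelial cells, neutrophils and neural progenitors and neuroblasts were higher on day 3 than on day 7. Within the last of them, Nes went from 5.17 FPKM on day 3 to 2.42 on day 7, while Dcx went from 0.211 to 2.45. The sums of macrophages, fibroblasts and pericytes, oligodendrocyte precursors and neurons were higher on day 7. So was that of T cells, where Cd3d was at 0.0149 FPKM. The part of these cell types in the values of the cell cycle genes was not tested.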

How the data were processed

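RNA of the ipsilateral cortex was measured in 6 libraries, 1 per group. The authors deposited FPKM values per transcript start, transcript end and splicing event, with events at 0 left out. How these were made is not given in the sources used here, and read counts were not used here. The submitters' processing notes name Trimmomatic 0.30, HISAT2 2.0.1, HTSeq 0.6.1 and the build mm10, without their roles. Between 83501 (day 14) and 99187 (day 7) events were listed per library. Of the events of genes with an identifier, 93.3% lay inside the annotated span of their gene and on its strand. Genes missing from 1 library in spite of a median of 5 FPKM or more elsewhere numbered 38 for day 14 and 2 to 7 for the rest. Loci without an identifier (879) were left out. Gene values, the pseudocount of 0.1, the filter at 1 FPKM and the log2 threshold of 1 are given with the results. Symbols and spans came from GENCODE M21 (15411 of 15441 genes matched), and promoter windows from RefSeq on GRCm38.p6. All members are accounted for, those reaching 1 FPKM with all 6 values, and from each other list the pair of largest and the pair of smallest log2 ratios at days 3 and 7, among genes listed in both libraries and past the filter, are named. Members, lists and tests were chosen with earlier results of these data known. 1 marker gene is not reported here, and its list is summed without it. No p-value was computed. The calculation of the counts and sums was checked on simulated data. Other settings tried were those of pseudocount, low-value filter, log2 threshold and library scaling, a transcript length trend over 20 bins, the events used, genes listed in both libraries, the class of the E cyclins and, chosen after seeing the data, leaving out Nusap1, Bub1b, Pcna or the genes not listed in sham. Python 3.11.15, numpy 2.4.6, pandas 2.3.3 and matplotlib 3.10.9 were used.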

Additional observations from a re-analysis of the deposited data

Results flagged for a closer look

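Mcm3 was above sham on one day and below it on another, past the threshold both times. Its log2 ratio to sham was 1.19 at day 3 and -1.06 at day 28, from values of 1.39 FPKM in sham, 3.30 FPKM at day 3 and 0.611 FPKM at day 28. The difference between both days was not tested, as each day has 1 library.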

How the results depend on the processing

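Each group has 1 library of pooled mice, so no replicate could be left out. No paired analysis was possible because the groups share no replicate numbers beyond a single library each. The day 3 count of genes higher than sham was 21 to 35 under all alternatives run, against 31. The share of all genes called was 2.98% at the low end (log2 threshold of 2) and 13.3% at the high end (no filter), against 8.54%. The other counts, 4 on day 1, 18 on day 7, 2 on day 14 and 1 on day 28, depended on how low values were treated. With 1 in place of 0.1 added to each FPKM they were 0 on day 1, 11 on day 7, 0 on day 14 and 0 on day 28, and with a log2 threshold of 2 they were 0, 9, 0 and 0, while the share of all genes called fell to 3.19%, 5.46%, 5.74% and 2.05% with the former and to 1.78%, 3.46%, 3.01% and 1.21% with the latter. Without a filter they were 13, 28, 12 and 7, where 9.28%, 13.9%, 12.9% and 7.95% of all genes were called, and with a filter of 0.5 FPKM 8 on day 1, 9 on day 14 and 2 on day 28, where 7.34%, 11.1% and 5.8% were. With start events alone 1 gene was higher on day 14 (8.38% of all genes) and 0 on day 28 (4.72%), and with end events alone 2 on day 28 (5.51%). The ratio of the summed G2/M genes to sham, 0.737 on day 1, 2.02 on day 3, 1.32 on day 7 and 0.732 on day 14 with Nusap1, was 1.17, 5.95, 3.2 and 1.27 with end events alone, 1.42, 5.69, 2.96 and 1.37 with events inside the annotated spans alone, and 1.16, 5.48, 2.91 and 1.33 without Nusap1, an alternative chosen after seeing the data. All 3 leave out the start event of the neighbouring lincRNA, and all 3 turn the day 1 and day 14 ratios from below 1 to above it. Without Nusap1 and without the genes not listed in sham, also chosen after seeing the data, the ratio was 4.01 on day 3 and 2.07 on day 7, and 0.937 on day 1. Of the values for the comparisons, 128 stayed within 1.5 times and 32 moved by more, and of those for single genes 537 stayed and 54 moved. Other scalings shifted all genes on the log2 scale by no more in size than the -0.095 of day 14. Depth per library is unknown, so genes not listed cannot be given an upper limit.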

Other observations

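Among the other G2/M genes, chosen after their values were seen, Hmgb2, a chromatin protein of dividing cells, was at 1.61 FPKM in sham, 8.59 on day 1, 5.56 on day 3, 4.89 on day 7, 2.2 on day 14 and 1.86 on day 28. It was thus highest on day 1. Nuf2, a kinetochore protein, was at 0.417 FPKM on day 1, 4.78 on day 3 and 1.15 on day 7, and not listed in sham, on day 14 and on day 28. Among the S phase genes, Dtl, which marks replication proteins for destruction, was at 2.74 FPKM on day 1, 2.64 on day 3 and 2.57 on day 7, and not listed in sham, on day 14 and on day 28. Rbl1, the pocket protein p107, was at 0.462 FPKM on day 1, 1.19 on day 3 and 1.05 on day 7, and not listed in sham, on day 14 and on day 28. Nuf2, Dtl and Rbl1 were not listed in sham, so no ratio is given.

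At day 7, by the rule of the largest and smallest ratios among genes listed in both libraries and past the filter of 1 FPKM, Iqgap3 and Ncapg were the other G2/M genes with the largest log2 ratios to sham, at 3.10 and 2.54, both from sham values under 0.1 FPKM. Kif22 had the smallest, at -1.10, followed by Arhgap11a at -0.15. Among other S phase genes Gins1, a subunit of the active helicase, had 1.21 and Tipin 0.74, and Pold1, a DNA polymerase subunit, had -1.70 and Dut -0.36. Among G1 genes Cdk2 had 1.03 and Ccnd3 0.66, and Mycn -0.40 and E2f3 0.02. At day 3 the G1 genes Ccnd3 and Cdc25a had 1.03 and 0.66, Mycn -0.17 and E2f3 -0.03, and the S phase gene Pole2 -0.42. Among inhibitors, Gmnn had -0.78 and Fzr1 -0.22 on day 3, and Cdkn2d had 4.11, Cdkn1a 1.38, Lin37 -0.45 and Fzr1 -0.19 on day 7.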
